A study of Homo sapiens with 24 samples.

Results

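The transcription factors that set and hold the luminal lineage of the mammary gland were followed through H3K27Ac ChIP-seq of cells depleted of ANCO1, the product of the ANKRD11 gene. The 9 members were GATA3, ELF3, ELF5, EHF, FOXA1, ESR1, PGR, SPDEF and XBP1, of 20056 protein-coding genes in RefSeq. They were chosen by name, and a region was counted for a member when the authors' annotation of that region named it, either because the region overlapped the gene or its promoter or because the gene lay beside it. Of the 9, 8 were named in at least 1 of 6 region tables, and PGR in none. The comparisons of shANCO1 with shCTRL held 34 member regions of 50284 in 10A and 30 of 44790 in DCIS.

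H3K27Ac is acetylation of histone H3 at lysine 27, which marks active promoters and enhancers. The study used MCF10A (10A), an immortalized non-tumorigenic human mammary epithelial line, and MCFDCIS (DCIS), a derivative that models triple-negative ductal carcinoma in situ. Each line carried lentiviral shANCO1 (ANCO1 knockdown) or shCTRL, the control hairpin, which the tables call shGFP. All cells had been infected and selected with puromycin, and every pairing of a line with a hairpin had 3 H3K27Ac and 3 input libraries, 24 in all. Per the study, both lines lack estrogen and progesterone receptor and HER2 amplification, and a single shANCO1 line stood for the knockdown in the ChIP comparisons. The labels do not say whether the libraries of a group came from separate cultures, so the deposited p-values measure only the spread between these libraries. The mark does not measure RNA and so gives no check of the knockdown itself.

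Luminal cells line the mammary ducts and form the milk-secreting alveoli, while basal cells lie outside them. GATA3, a zinc finger factor, is required to specify and keep the luminal fate. FOXA1 is a pioneer factor that opens chromatin for the estrogen receptor, encoded by ESR1, and PGR, the progesterone receptor, is a classic target of that receptor. ELF3, ELF5, EHF and SPDEF are ETS family factors of epithelia, of which ELF5 drives the alveolar program. XBP1 drives the secretory and unfolded protein response.

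The labelled cell type was checked by its markers in the regions enriched over input, which named between 38.4% and 59.5% of all protein-coding genes in a group. Of 6 luminal markers, 4 to 5 had a region enriched over input in each group, among them KRT8, KRT18, MUC1 and EPCAM, while CD24 was listed in none. Of 8 genes on the basal epithelial list, 6 to 7 had one, KRT5 and ITGA6 included, while KRT14 was listed in none. That list also held CDH1, a general epithelial gene and not a basal marker, which was listed in every group. Of 7 genes of other cell types, 2 to 3 were listed, with PECAM1 and CDH5 in every group and PTPRC, CD3E, COL3A1 and MYH11 in none. In the shANCO1 against shCTRL comparisons, regions of these other cell type genes rose in 3 of 16 in 10A and in 4 of 25 in DCIS. A further 9 of the 25 fell, all at PECAM1, an endothelial adhesion gene, where the lowest FDR was at a change of -2.96 (FDR 2.73e-07), and their part in the results was not tested. Regions of the basal list, CDH1 included, rose in 26 of 57 in 10A and in 13 of 68 in DCIS, and none fell. These counts lie near the 43.6% and 23.6% of all regions that rose. The input comparisons held between 15482 and 28607 enriched regions over 9.04 to 25.3 Mb, with the 10A shANCO1 group at the top of both ranges. Values were deposited for whole groups, so the depth of a library, the spread between replicates and the level in a single library are unknown.

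The sequences shown here are those under the changes described further on. For each member the 300 bp at the midpoint of its called region of lowest FDR in a line were searched on both strands for 5 motifs. The AP-1 motif was TGAGTCA, bound by FOS and JUN proteins. The TEAD motif of the Hippo pathway was GGAATG, and that of GATA factors AGATAA. Forkhead factors such as FOXA1 were represented by TGTTTAC and the ETS family by GGAAGT. For display, only the window from the line with the lower FDR was considered for each member. Below are the 3 of these that held a match and no annotated untranslated sequence, on the plus strand of GRCh38, with matches in capitals. The ESR1 window in 10A, chr6:152096251-152096550, held a TEAD match but is not shown, because the ESR1 FDR was lower in DCIS. The EHF window at chr11:34621351-34621650 lies at the start of the gene, inside the member region of lowest FDR in DCIS, and holds a GATA and a TEAD match, both read on the minus strand. The GATA3 window at chr10:8058901-8059200 lies downstream of the canonical start, inside the stronger of its 10A gains, and holds an ETS match. The SPDEF window at chr6:34543551-34543850 lies within the gene, inside the only region naming it, and holds an AP-1 and an ETS match that overlap.
EHF: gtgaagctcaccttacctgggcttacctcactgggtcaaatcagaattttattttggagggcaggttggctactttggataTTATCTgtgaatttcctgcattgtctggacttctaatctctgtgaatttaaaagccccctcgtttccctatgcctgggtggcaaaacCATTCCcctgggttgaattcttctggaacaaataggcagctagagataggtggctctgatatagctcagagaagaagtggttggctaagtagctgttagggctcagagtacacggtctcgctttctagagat
GATA3: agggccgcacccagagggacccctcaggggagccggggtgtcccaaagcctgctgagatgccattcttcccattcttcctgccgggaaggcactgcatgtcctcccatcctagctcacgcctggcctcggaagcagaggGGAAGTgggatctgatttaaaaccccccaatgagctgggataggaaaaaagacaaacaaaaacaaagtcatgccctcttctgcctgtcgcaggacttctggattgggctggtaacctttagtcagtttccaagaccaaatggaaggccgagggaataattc
SPDEF: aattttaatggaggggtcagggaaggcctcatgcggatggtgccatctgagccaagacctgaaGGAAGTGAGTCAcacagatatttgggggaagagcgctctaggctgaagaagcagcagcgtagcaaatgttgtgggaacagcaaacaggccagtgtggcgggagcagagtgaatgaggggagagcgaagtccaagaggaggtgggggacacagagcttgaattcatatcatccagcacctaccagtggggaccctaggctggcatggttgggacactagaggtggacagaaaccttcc
With so few windows, the counts below, which include the windows shown, are a description and cannot be set apart from the background. Among the 6 member windows in 10A, 1 held AP-1, 1 held TEAD, 2 held ETS and none held GATA or forkhead, where the same windows of all 10A regions held AP-1 in 11.1%, TEAD in 18%, GATA in 15.7%, forkhead in 4.28% and ETS in 20.5%. Among the 5 member windows in DCIS, 1 held TEAD and GATA together, and none held AP-1, forkhead or ETS. The DCIS background was 9.4% for AP-1, 17.4% for TEAD, 11.7% for GATA, 3.55% for forkhead and 19.9% for ETS. A match is a stretch of letters and not a bound site. Each motif was searched only in the letters given and their reverse complement, so other spellings of a site were not counted.

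A further pair of sequences was chosen after their values were seen, because they underlie the gains at ESR1 and FOXA1 in DCIS. The ESR1 window at chr6:151917601-151917900 (plus strand) lies in an intron and holds none of the 5 motifs in the exact letters searched. The FOXA1 sequence is the 250 bp upstream of its RefSeq start at chr14:37595250-37595499. It is written 5′ to 3′ on the minus strand, on which the gene lies, and also holds none in those letters. Other spellings that forkhead, GATA or the other factors bind were not searched, so either sequence may still hold a site. At least 1 of the 5 occurred in 39.7% of the 250 bp upstream of 35116 RefSeq starts, from 2.98% for forkhead to 19.5% for ETS.
ESR1: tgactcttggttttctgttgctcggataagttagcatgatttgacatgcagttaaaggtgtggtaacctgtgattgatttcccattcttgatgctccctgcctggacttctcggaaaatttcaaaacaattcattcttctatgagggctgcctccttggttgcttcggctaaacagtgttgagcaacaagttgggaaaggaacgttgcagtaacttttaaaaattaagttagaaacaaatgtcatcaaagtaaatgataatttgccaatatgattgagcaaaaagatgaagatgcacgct
FOXA1: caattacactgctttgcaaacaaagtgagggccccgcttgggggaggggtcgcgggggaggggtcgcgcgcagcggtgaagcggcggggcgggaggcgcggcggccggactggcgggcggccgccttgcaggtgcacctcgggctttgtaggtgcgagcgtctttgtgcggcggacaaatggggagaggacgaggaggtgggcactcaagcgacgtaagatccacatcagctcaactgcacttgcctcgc

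Before the knockdown, the luminal factors were marked unequally. In 10A shCTRL cells 4 of the 9 had a region enriched over input, against 38.4% of all protein-coding genes, and these were GATA3, EHF, ESR1 and XBP1. In DCIS shCTRL cells 5 had one, against 45.1% of all genes, with ELF3 beside the same 4. In shANCO1 cells the numbers were 5 in 10A, where FOXA1 was added, against 59.5% of all genes, and 6 in DCIS, where FOXA1 was also added, against 47.9%. ELF5, PGR and SPDEF had no region listed as enriched in any group. Each list of enriched regions held almost only strong regions, with an FDR of at most 3.92e-08 in every group but DCIS shCTRL, where 0.228 was the highest. A gene that is not listed therefore lacked strong enrichment, and need not have lacked the mark. The groups were each compared with input separately, and differences between them in these listings were not tested.

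**Figure D1:**
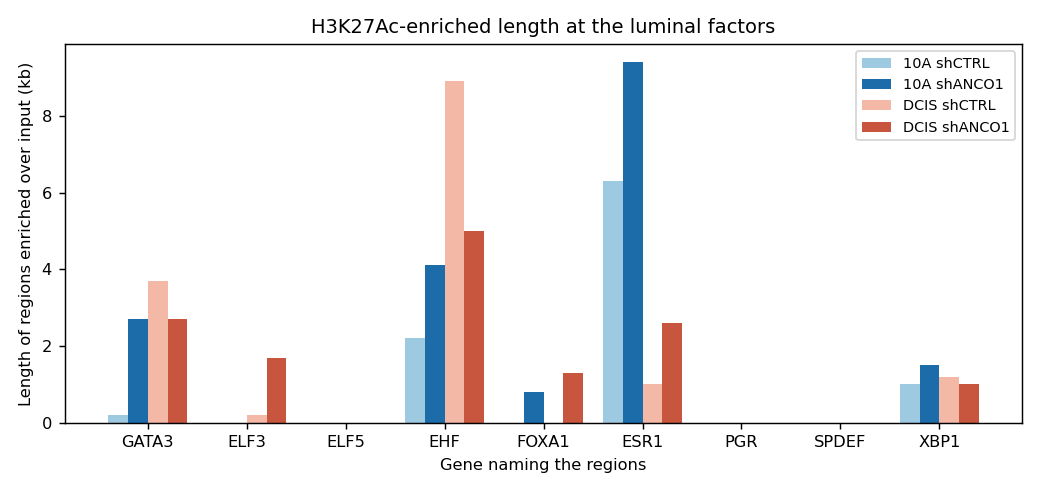
Summed length in kb (vertical axis, from 0) of the H3K27Ac regions enriched over input that name each factor (horizontal axis), with 1 bar for each of the 4 groups of line and hairpin. Bars are single values of pooled comparisons without error; FOXA1 has bars of 0.8 and 1.3 kb in shANCO1 cells and none in shCTRL cells, and ELF5, PGR and SPDEF have none.

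The enriched length showed where each factor held its mark. GATA3 had 0.2 kb in 10A shCTRL and 2.7 kb in 10A shANCO1 cells, but 3.7 kb in DCIS shCTRL and 2.7 kb in DCIS shANCO1 cells. EHF went from 2.2 to 4.1 kb in 10A and from 8.9 to 5.0 kb in DCIS. ESR1 went from 6.3 to 9.4 kb in 10A and from 1.0 to 2.6 kb in DCIS. ESR1 was thus the most widely marked member in 10A and EHF in DCIS, whichever the hairpin. ELF3 had 0.2 kb in DCIS shCTRL and 1.7 kb in DCIS shANCO1 cells, and no listed region in 10A. XBP1 had 1.0 and 1.5 kb in 10A and 1.2 and 1.0 kb in DCIS, without a clear direction. Over all members the length was 9.7 kb in 10A shCTRL and 18.5 kb in 10A shANCO1 cells, and 15 kb in DCIS shCTRL and 14.3 kb in DCIS shANCO1 cells. All regions together covered 9.04 and 25.3 Mb in 10A and 11.0 and 11.9 Mb in DCIS, so the longer coverage in 10A shANCO1 cells was not particular to the members.

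The direct comparison of shANCO1 with shCTRL asked which of these loci changed when ANCO1 was depleted. A region was called when the authors' csaw test gave an FDR under 0.05. Its change is the deposited log2 fold change of shANCO1 over shCTRL. Windows up or down are those the authors counted as such, by a rule that is not stated. A region can have none of either and still be given a direction. In 10A cells 12 of 34 member regions rose (35.3%) and none fell, where 43.6% of all regions rose and 0.225% fell. At an unadjusted csaw p under 0.05, 13 member regions were up and still 0 down. By gene, 6 of 9 members had a region that rose and none had one that fell, where 54% and 0.334% of all protein-coding genes did. The share of member regions that rose in 10A was thus below that of all regions, and the share by gene above that of all genes. The whole table was tilted upward, as the median change over all 10A regions was 0.76, and it was 0.66 over the member regions, 28 of which lay above 0.

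DCIS cells changed in both directions. There, 10 of 30 member regions rose (33.3%, against 23.6% of all regions) and 3 fell (10%, against 4.86%). Without ESR1, 5 of 22 rose, near the share of all regions. By gene, 4 of 9 members had a region that rose, against 22.1% of all protein-coding genes, and 2 had one that fell, against 4.67%. The median change over the member regions was 0.77 and that over all regions 0.52. The member regions were wider than most, with a median of 2200 bp against 900 bp in DCIS and 1250 bp against 1000 bp in 10A. Several regions belong to 1 gene, and no test was made over the members. In cultures measured in bulk, more cells carrying a mark and more mark per cell cannot be told apart.

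**Figure D2:**
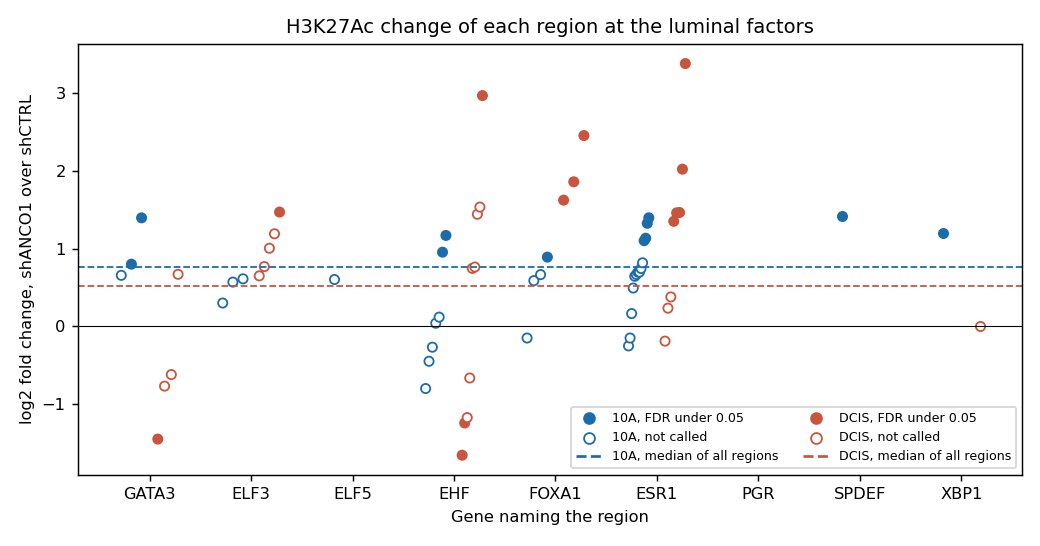
Log2 fold change of shANCO1 over shCTRL (vertical axis) for every H3K27Ac region naming each factor (horizontal axis), 10A in blue and DCIS in red. Filled points have an FDR under 0.05 in the authors' table and dashed lines are the medians of all regions, 0.76 in 10A and 0.52 in DCIS. The 2 called regions of GATA3 in 10A lie above 0, and the 1 called in DCIS, at a different place, lies below it. All 3 FOXA1 regions in DCIS are called and above the median.

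FOXA1 had regions that rose in DCIS and, in 10A, 1 of 4 that did, with larger values in DCIS. The gene is on chr14:37589552-37596059, on the minus strand. In DCIS all 3 regions naming it rose. The region chr14:37593501-37596600, which spans the promoter and canonical start and contains the sequence shown, changed by 1.63 (FDR 9.65e-06). The flanking regions chr14:37579801-37581100 and chr14:37583001-37583500, beyond the 3′ end of the gene, changed by 2.46 (FDR 0.000188) and 1.86 (FDR 0.000252). These 3 changes exceeded those of 85.7%, 96.0% and 90.0% of all DCIS regions. No FOXA1 region was listed as enriched in DCIS shCTRL cells, and 3 were in DCIS shANCO1 cells, with a log2 enrichment over input of 5.22 just downstream of the start.

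In 10A the FOXA1 gain was smaller. The region chr14:37593901-37595100, over the promoter and exon just downstream of the start, changed by 0.89 (FDR 0.0207), which is 0.13 above the 10A median. The other 3 regions were not called and changed by between -0.15 and 0.67. The lowest was chr14:37595401-37596000, annotated as promoter and upstream of the canonical start, at -0.15 (FDR 0.744), where 5.37% of 10A regions were lower. The 3′ flank that gained in DCIS changed by 0.59 in 10A (FDR 0.419), and of the 10A groups it was listed as enriched in shANCO1 cells only. Whether the change differed between the lines was not tested, here or at any other member.

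GATA3 rose in 10A and was not called up anywhere in DCIS. The gene is on chr10:8045378-8075198, on the plus strand, with its canonical start at 8054688. In 10A the region over that start, chr10:8053501-8057300, rose by 0.80 (FDR 0.0143), just 0.04 above the 10A median. The next region, chr10:8057201-8060900, over promoter and exon sequence and containing the window shown, rose by 1.40 (FDR 0.00306), more than 93.9% of 10A regions. An intronic region, chr10:8070501-8071200, changed by 0.66 and was not called (FDR 0.140).

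In DCIS the matching GATA3 regions were not called and had negative values. They changed by -0.77 at chr10:8053501-8057400 (FDR 0.422) and by -0.62 at chr10:8057301-8061100 (FDR 0.641), where only 14.6% and 17.5% of DCIS regions were lower. A region of 2 windows in the promoter and intron of upstream transcripts, chr10:8049901-8050300, fell by 1.45 on the log2 scale (FDR 0.0402), and the fourth region changed by 0.67 without a call. GATA3 was marked in DCIS with either hairpin. Its strongest listed region had a log2 enrichment over input of 7.37 in shCTRL and 7.03 in shANCO1 cells, against 3.18 and 3.35 in the 10A groups. The regions at 7.03 and 3.18 held 1 window each. The scale also differed, as the median over all enriched regions was 4.09 and 4.47 in DCIS shCTRL and shANCO1 cells. In the 10A groups it was 3.32 and 3.40.

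EHF had both a strong gain and losses in DCIS. Its ETS neighbor ELF5 lies at lower coordinates, chr11:34478791-34525193, on the minus strand. EHF itself is on chr11:34621093-34663288, on the plus strand. The region over its start, chr11:34620401-34622600, rose by 2.97 in DCIS (FDR 4.12e-12), with all 18 windows up, more than 98.4% of DCIS regions. In 10A the matching region chr11:34621001-34622500 rose by 0.96 (FDR 0.00199), with 10 of 14 windows up, and 0.19 above the 10A median. The start region was listed as enriched in 10A with either hairpin, with log2 values of 3.87 in shCTRL and 3.78 in shANCO1 cells. In DCIS it was listed in shANCO1 cells only, at 4.98.

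Within the body of EHF, 2 regions fell in DCIS. The region chr11:34641101-34645900 fell by 1.24 (FDR 0.00778), with 11 of 46 windows down and none up. The region chr11:34648901-34651300 fell by 1.66 (FDR 0.0498), with 10 of 23 windows down, close to the threshold. Beside these, chr11:34636301-34641200 changed by -0.66 (FDR 0.583) and chr11:34651901-34654600 by -1.17 (FDR 0.0705), neither called. The authors gave the direction of both as mixed, which the call rule leaves uncalled at any FDR. The second had 2 windows up and 4 down. The input comparisons covered the same stretch. An unbroken 4.5 kb stretch at chr11:34640701-34645200 was enriched in DCIS shCTRL cells with a log2 value of 8.09, and in DCIS shANCO1 cells the listed stretch ended at 34643000, with 7.68. A region at chr11:34650201-34650600 was listed in shCTRL cells alone, at 6.73.

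Further regions of EHF were mixed. Near the 3′ part of the gene, chr11:34654501-34657200 changed by 1.54 in DCIS (FDR 0.0588), and a second promoter region, chr11:34631001-34633200, by 1.44 (FDR 0.0567), both short of the threshold. The remaining 2 DCIS regions changed by 0.76 and 0.75 and were not called. In 10A the region chr11:34652501-34656600, in an intron, rose by 1.17 (FDR 0.00406). The 5 other 10A regions were not called and ranged from -0.80 to 0.12, all under the 10A median. The regions of the gene body at chr11:34639201-34642900 and chr11:34643501-34646000 had the lowest of these values, -0.80 (FDR 0.384) and -0.45 (FDR 0.697). Just 0.607% and 2.48% of 10A regions were lower. In the input comparisons the second held an enriched region, chr11:34644301-34645000, in 10A shANCO1 cells, at 2.71, and none in 10A shCTRL cells. The first held none in either 10A group.

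**Figure D3:**
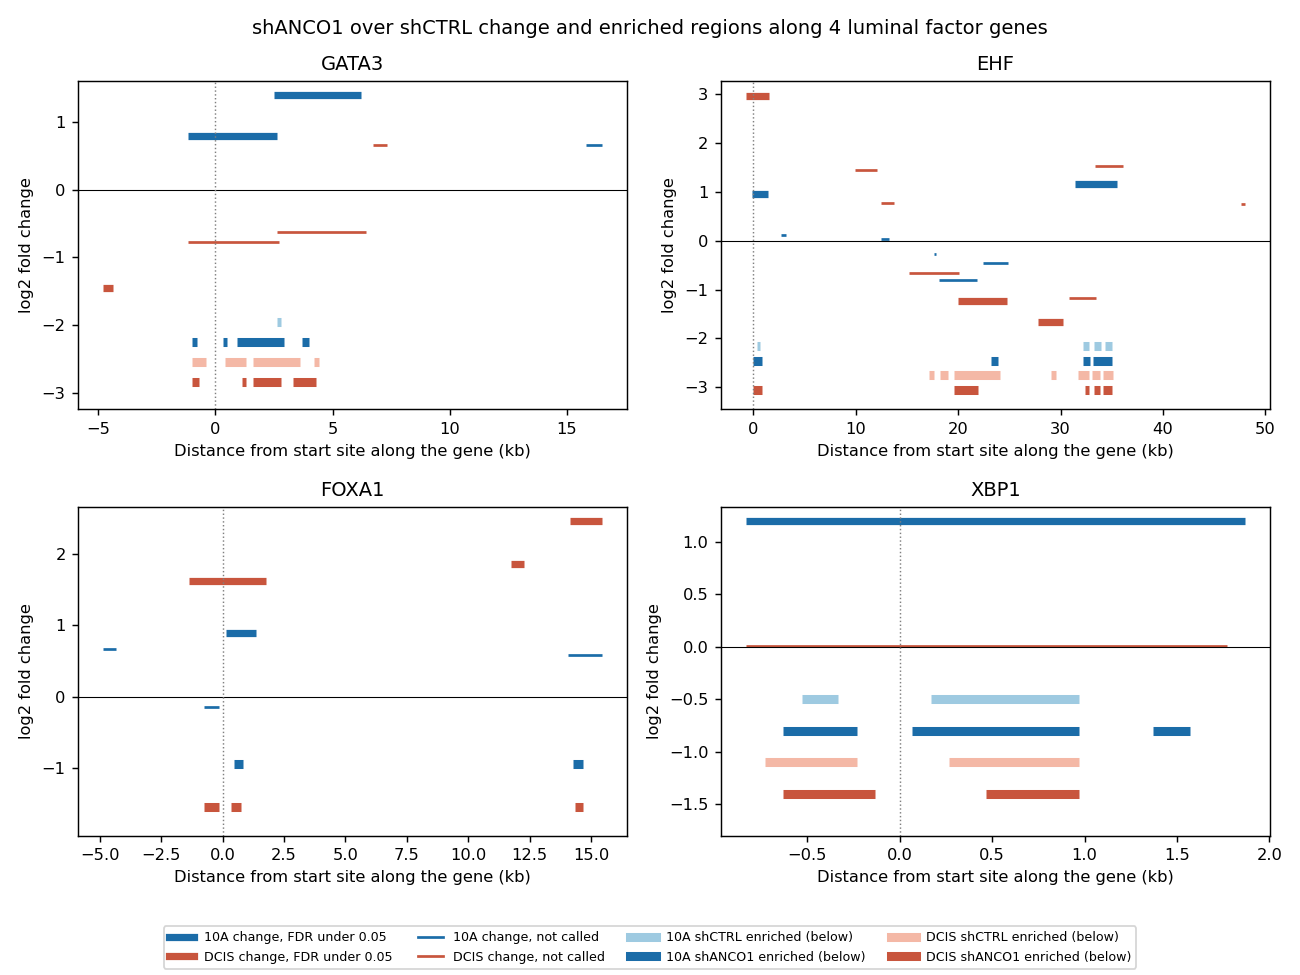
Regions along GATA3, EHF, FOXA1 and XBP1, by distance in kb from the canonical start (dotted line) in the direction of transcription. Bars above and around 0 give the log2 fold change of shANCO1 over shCTRL of each region (thick where FDR was under 0.05, thin where not), and the 4 rows of bars at the bottom of each panel mark the regions enriched over input in each group, with their height arbitrary. In DCIS the start of EHF is at 2.97 and its 2 called regions in the gene body lie at -1.24 and -1.66, and XBP1 is at 1.20 in 10A and at 0.0032 in DCIS.

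ELF3, ELF5 and SPDEF, the other ETS factors, carried less of the mark. ELF3 lies on chr1:202007945-202017183, and its regions were called only in DCIS. There chr1:202006801-202010400, over promoter and exon sequence of the upstream start, rose by 1.47 (FDR 0.0369), with 16 of 35 windows up. The region over the canonical start, chr1:202010301-202013900, changed by 0.77 (FDR 0.645), and the other 3 by between 0.65 and 1.19 without a call. All 5 lay above the DCIS median. The 3 regions of ELF3 in 10A changed by 0.30, 0.61 and 0.57, with FDR from 0.348 to 0.733, all under the 10A median. Listed enrichment at ELF3 grew from 1 region in DCIS shCTRL cells, with a log2 value of 2.64, to 4 regions in DCIS shANCO1 cells, with values of up to 4.94.

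SPDEF and ELF5 each appeared in a single table. The SPDEF gene is on chr6:34537802-34556333, and chr6:34543201-34544200, annotated as exonic, rose in 10A by 1.42 (FDR 0.00716), with all 9 windows up, more than 94.6% of 10A regions. That region was listed as enriched over input in neither 10A group. The ELF5 gene had 1 intronic region in 10A, chr11:34501801-34502400, which changed by 0.61 and was not called (FDR 0.231). Neither gene had a region in the DCIS comparison.

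ESR1 had regions that rose in both lines, none of them over a protein-coding start. The gene spans 472.929 kb on chr6:151656691-152129619, on the plus strand, and its length gives it many chances to be named. In 10A 5 of 14 regions rose. The largest change among them was at chr6:152094601-152098200, an intronic region 289 kb downstream of the canonical start, which rose by 1.40 (FDR 0.00164). Nearby, chr6:152091701-152092200 rose by 1.33 (FDR 0.00922) and chr6:152099601-152101100, over an exon, by 1.14 (FDR 0.00299). The intronic regions chr6:151957701-151959500 and chr6:151916001-151918700 rose by 1.10 (FDR 0.00407) and 0.70 (FDR 0.00485). The last of these is 0.06 below the 10A median, so that its direction turns when changes are counted from that median.

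In DCIS 5 of 8 regions of ESR1 rose, by between 1.35 and 3.38. The region chr6:151917201-151918300, which contains the intronic sequence shown, rose by 3.38 (FDR 1.28e-07), with all 7 windows up, more than 99.2% of DCIS regions. It overlaps the 10A region that rose by 0.70. The region chr6:151899601-151902500 rose by 1.35 (FDR 5.78e-05), with 23 of 28 windows up, while the 10A region at the same place changed by 0.75 and was not called (FDR 0.250). The remaining 3, at chr6:151916301-151916500, chr6:151669201-151669400 and chr6:152095501-152095800, rose by 2.02 (FDR 0.000946), 1.46 (FDR 0.0131) and 1.47 (FDR 0.0224), each over 1 or 2 windows.

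Listed enrichment at ESR1 lay away from its start and was already present in control cells. In 10A shCTRL cells 7 regions were listed, the strongest at chr6:151915201-151916900 with a log2 value of 7.68, in a line without estrogen receptor per the study. In 10A shANCO1 cells 9 were listed, among them chr6:151957801-151958400 at 4.70 and chr6:152097001-152097600 at 3.58, which had no counterpart in the control list. In DCIS, chr6:151917301-151917500 was listed in shANCO1 cells only, at 6.90. No listed region lay within 1 kb of the canonical start in any group. PGR, the receptor gene downstream of ESR1, on chr11:101029624-101129813, was named in none of the 6 tables.

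**Figure D4:**
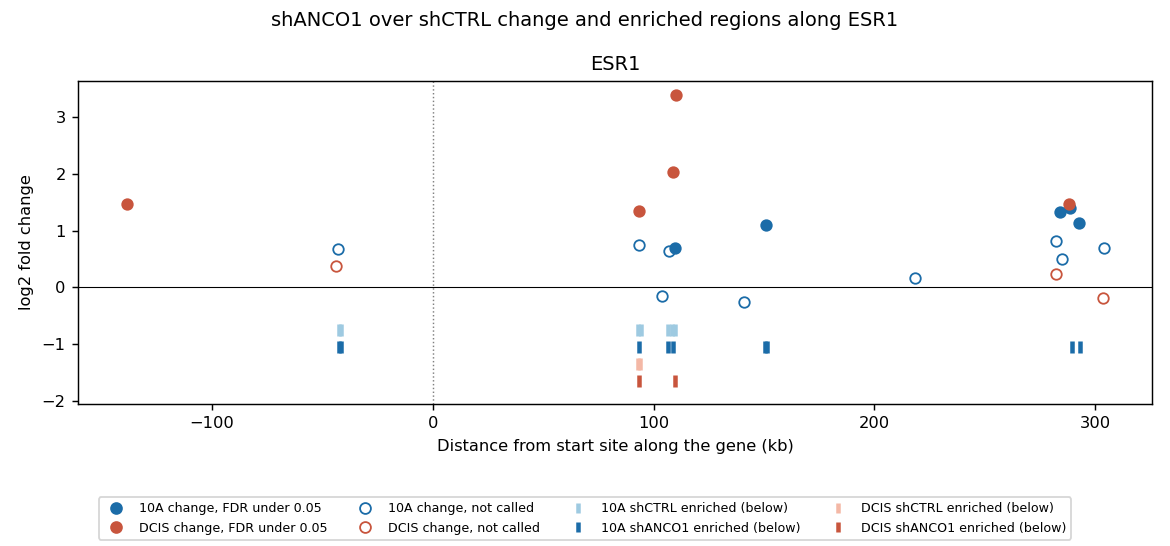
Regions naming ESR1 by the distance in kb of their midpoint from the canonical start (horizontal axis, dotted line at 0) and their log2 fold change of shANCO1 over shCTRL (vertical axis), filled where FDR was under 0.05. Ticks in the rows at the bottom mark the midpoints of regions enriched over input in each group, at arbitrary heights. The highest point is the DCIS region at 110 kb with 3.38, and no point or tick lies at the start.

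XBP1 rose at its promoter in 10A and was not called in DCIS. The gene is on chr22:28794555-28800597, on the minus strand, and each line had 1 region naming it, over the canonical start. In 10A, chr22:28798701-28801400 rose by 1.20 (FDR 0.00554), with 17 of 26 windows up, more than 86.4% of 10A regions. In DCIS, chr22:28798801-28801400 changed by 0.0032 (FDR 0.999), with no window counted as up or down. The promoter was enriched over input in all 4 groups, with log2 values at the region of lowest FDR of 3.0 and 4.43 in 10A shCTRL and shANCO1 cells and of 4.86 and 6.04 in the DCIS groups. The DCIS groups also had the higher medians over all enriched regions, as given for GATA3. The difference between the lines in the change was not tested.

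Partners and targets of the luminal factors were read against the whole tables. In 10A 54% of genes had a region that rose and 0.334% one that fell, and 43.6% and 0.225% of regions did. In DCIS the shares were 22.1% and 4.67% of genes and 23.6% and 4.86% of regions. Of 20 partner factors of luminal cells, 14 had a region that rose in 10A and none had one that fell (52 of 83 regions up, median change 0.88). In DCIS 9 had a region that rose and 1 had one that fell (13 up and 1 down of 110 regions, median 0.43). RUNX1, a partner of the luminal program that is often mutated in breast cancer, rose by 1.51 in 10A (FDR 5.6e-07) and by 1.80 in DCIS (FDR 3.06e-05) at different regions. CEBPB, a regulator of mammary cell fate, rose by 0.93 in 10A (FDR 5.14e-05), and BHLHE40, a repressor of the circadian and stress response, by 1.54 in DCIS (FDR 1.32e-05).

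Among 30 luminal structural and target genes, 18 had a region that rose in 10A and 7 in DCIS, and none had one that fell in either line (52 of 86 and 10 of 95 regions up, median changes 0.93 and 0.24). The counts of genes lie near the shares of all genes, 54% and 22.1%. The count of regions lies above the 43.6% of all regions in 10A and under the 23.6% in DCIS. AREG, which encodes the growth factor amphiregulin, rose by 1.56 (FDR 3.2e-06) and KRT19, a luminal keratin, by 1.44 (FDR 5.91e-06) in 10A. CD24, a luminal surface protein, rose by 2.57 (FDR 1.35e-06) and ELOVL5, a fatty acid elongase, by 2.56 (FDR 9.44e-05) in DCIS, each over 4 windows. CD24 had no region listed as enriched over input in any group. Against the line medians of 0.76 and 0.52, the target genes as a list lay above in 10A and below in DCIS. The 9 factors did the opposite, and so did the 12 basal and squamous factors, the latter with medians of 0.64 and 0.55.

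The basal and squamous factors, which oppose the luminal fate, were counted in the same way. Of 12, 7 had a region that rose in 10A and none had one that fell (14 of 45 regions up, median 0.64), close to the 12 of 34 regions of the luminal factors. The count of genes lies near the 54% of all genes and that of regions under the 43.6% of all regions. In DCIS 3 had a region that rose and 3 had one that fell (10 up and 4 down of 42, median 0.55). There 22.1% of all genes had a region that rose and 4.67% had one that fell, and 23.6% of all regions rose and 4.86% fell. The luminal factors had 10 regions up and 3 down of 30, and by gene 4 of 9 and 2 of 9. SNAI2, a repressor that keeps basal cells from luminal fate, rose by 1.37 (FDR 3.25e-07) and MEIS1, a homeobox factor, by 1.42 (FDR 0.000563) in 10A. SOX15 rose by 2.21 (FDR 3.94e-07) and TP63, the master regulator of basal epithelium, by 2.43 (FDR 1.48e-05) in DCIS. No difference between the lists was tested.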

How the data were processed

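H3K27Ac and input libraries of 10A and DCIS cells with shANCO1 or shCTRL were sequenced, with 3 libraries in each of 8 groups. According to its methods section, BWA and Rsubread were used by the authors for alignment to GRCh38, samtools for deduplication, csaw for the test of differential binding and ChIPpeakAnno for gene names. The submitters' processing notes also name FastQC and HOMER. The authors deposited 6 tables with 1 row per region and no value per library (2 of shANCO1 against shCTRL and 4 of an H3K27Ac group against input). For each region the authors deposited the log2 fold change of 1 representative window. The deposited p-value and FDR of a region were combined by the authors over its windows and adjusted over the table. Window filter, normalization and merging were not stated. Normalization sets the zero of every change, so values are also given against the median of a line. Depth is unknown, and no interval is given.

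No further test was run. A region counted as up or down when its FDR was under 0.05 in the direction the authors gave (Python 3.11.15, pandas 2.3.3, numpy 2.4.6), and the reading rules were tested on simulated data. 1 marker of another cell type is not reported here. The members and lists were chosen with earlier results of these data known. Every member was named, with its lowest-FDR region, its start region and each called region. For each other list and line, the 2 genes with the lowest-FDR called regions were named. Gene spans and canonical starts came from GENCODE release 44. Of 129 placements of a member on an overlapping region, 126 lay within the gene or 5 kb upstream. Coordinates are 1-based, and no region ran past the end of its chromosome. Alternatives were FDR under 0.01, 0.1 or (for enrichment) 1e-10, a change of at least 1, a distance of at least 0.5 from the median, overlapping regions only, placement by coordinates and at least 5 windows. Leaving out ESR1 and a log2 enrichment of at least 3 were added after seeing the data.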

Additional observations from a re-analysis of the deposited data

How the results depend on the processing

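No paired analysis was possible because the tables hold no value per library, and for the same reason no library could be left out. Counted at least 0.5 from the median of the line, 10A regions that rose went from 12 to 4 and members with one from 6 to 3 (GATA3, ESR1 and SPDEF), and the ESR1 region at chr6:151916001-151918700 reversed, with -0.065. Without ESR1, regions that rose went from 12 of 34 to 7 of 20 in 10A, a like share. In DCIS they went from 10 of 30 to 5 of 22, near the 23.6% of all regions. At FDR under 0.01, DCIS regions that fell went from 3 to 1 and members with one from 2 to 1, the EHF gene body. With at least 5 windows, DCIS regions that rose went from 10 to 6, members with one that fell from 2 to 1, and members marked in DCIS shCTRL cells from 5 to 3. The other counts under these settings stayed within 1.5 times their value. Low depth could hide weaker regions, and its size is unknown.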
